A study of Mus musculus with 12 samples.

Results

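AP-1 is a family of transcription factors in which a FOS protein pairs with a JUN protein, or 2 JUN proteins pair with each other, through a leucine zipper. ATF3 is a stress-induced relative that pairs with JUN proteins and often acts as a repressor, and the small MAF proteins MAFF and MAFK are short DNA-binding partners of the CNC factors such as NRF2 and BACH1. In skeletal muscle the FOS and JUN genes are immediate early genes, whose transcripts rise within minutes to hours of contraction and decay soon after.

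The listed members were Fos, Fosb, Fosl1, Fosl2, Jun, Junb, Jund, Atf3, Mafk and Maff, 10 genes beside 22180 that have a probeset naming them alone. For each gene the probeset of that kind with the highest mean over the 12 arrays was taken. This left 9 members with values, because the only probeset that names Fosl1 also names Ccdc85b, and Fosl1 was given no value. All 9 passed the filter that left out the 40% of genes with the lowest mean, and so were among the 13308 genes tested.

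RNA of gastrocnemius, the large calf muscle, came from FVB mice labelled male and aged 2 to 3 months, with 3 arrays in each of 4 groups. The groups were sedentary wild type, sedentary ERRa-null and, as exercised groups, the same genotypes 2 h after an exhaustive treadmill run. ERRa-null mice lack the orphan nuclear receptor encoded by Esrra, a regulator of mitochondrial genes. The labels name no promoter or cell type for the deletion, so effects of its loss in muscle and elsewhere in the animal cannot be told apart. All values are log2 values on the scale of the deposited table, which carries no detection call, and levels are compared between arrays for 1 gene and not between genes.

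The source name gives another exercise state than the title for 6 arrays, those of sedentary ERRa-null and exercised wild type, and the titles were followed. The mean of 6 inducible chaperones ran from 6.78 to 7.16 among 6 sedentary arrays, and from 8.11 to 9.25 among 6 exercised ones, sorted by title. Esrra was between 7.41 and 7.63 on wild-type and between 6.55 and 6.89 on ERRa-null arrays. Xist exceeded the Y-linked Eif2s3y on 3 arrays (exercised wild type replicate 3, exercised ERRa-null replicates 2 and 3), against the male label. These are called the Xist-high arrays. The mean of 8 muscle markers lay between 12.99 and 13.14 on every array, while markers of other tissues varied most among sedentary arrays. Liver Alb reached 12.82 on sedentary wild type replicate 1, 11.83 on sedentary ERRa-null replicate 2 and 10.64 on exercised wild type replicate 1. Brown-fat Ucp1 reached 10.93 and 10.82 on sedentary wild type replicates 3 and 2, and 9.43 on sedentary ERRa-null replicate 3. B-cell Cd79a reached 8.95 on sedentary ERRa-null replicate 1, and 7.97 and 7.78 on sedentary wild type replicates 2 and 3. Svs6 of the seminal vesicle reached 12.63 on sedentary ERRa-null replicate 1 and at most 3.74 elsewhere.

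Most members were higher in wild-type muscle after running. Atf3, Fos, Mafk, Jun, Fosb and Maff rose, by 1.70-fold (Maff) to 8.07-fold (Atf3), and Fosl2, Junb and Jund did not pass. Thus 6 of 9 members were called higher at an adjusted p under 0.05, beside 2.22% of all genes tested, and none was called lower. The median difference over the 9 was 0.95 log2, beside −0.0089 over all genes. Every member, the 3 uncalled ones included, had its 3 exercised wild-type arrays above its 3 sedentary ones, which held for 10% of genes tested.

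In ERRa-null muscle Atf3 was the 1 member of 9 called after running, where 0.383% of genes were called higher. Jund, Atf3 and Mafk had no overlap between resting and exercised ERRa-null arrays, so 3 of 9 did where 8.99% of genes did. The median difference of the members was 0.32 log2, beside −0.0114 over all genes. The difference between the genotypes in the exercise change was tested as an interaction, and 0 of 9 members passed it in limma. At an unadjusted p under 0.05 there were 6 of 9 members, beside 5.12% of all genes, and 1 of 13308 genes (0.00751%) passed after adjustment. The interaction estimate was negative for all 9, with a median of −0.70 log2 and a range from −1.13 (Fos) to −0.062 (Jund). It was negative for all 6 inducible chaperones too (median −0.65). Averaged over the genotypes 6 of 9 members were called higher (Fos, Jun, Jund, Atf3, Mafk and Maff), where 3.14% of genes were. On leaving out the Xist-high arrays this became 5 of 9, with Jund (0.23, adjusted p = 0.229) and Maff (0.38, adjusted p = 0.302) out and Fosb in (0.49, adjusted p = 0.0448).

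**Figure D1:**
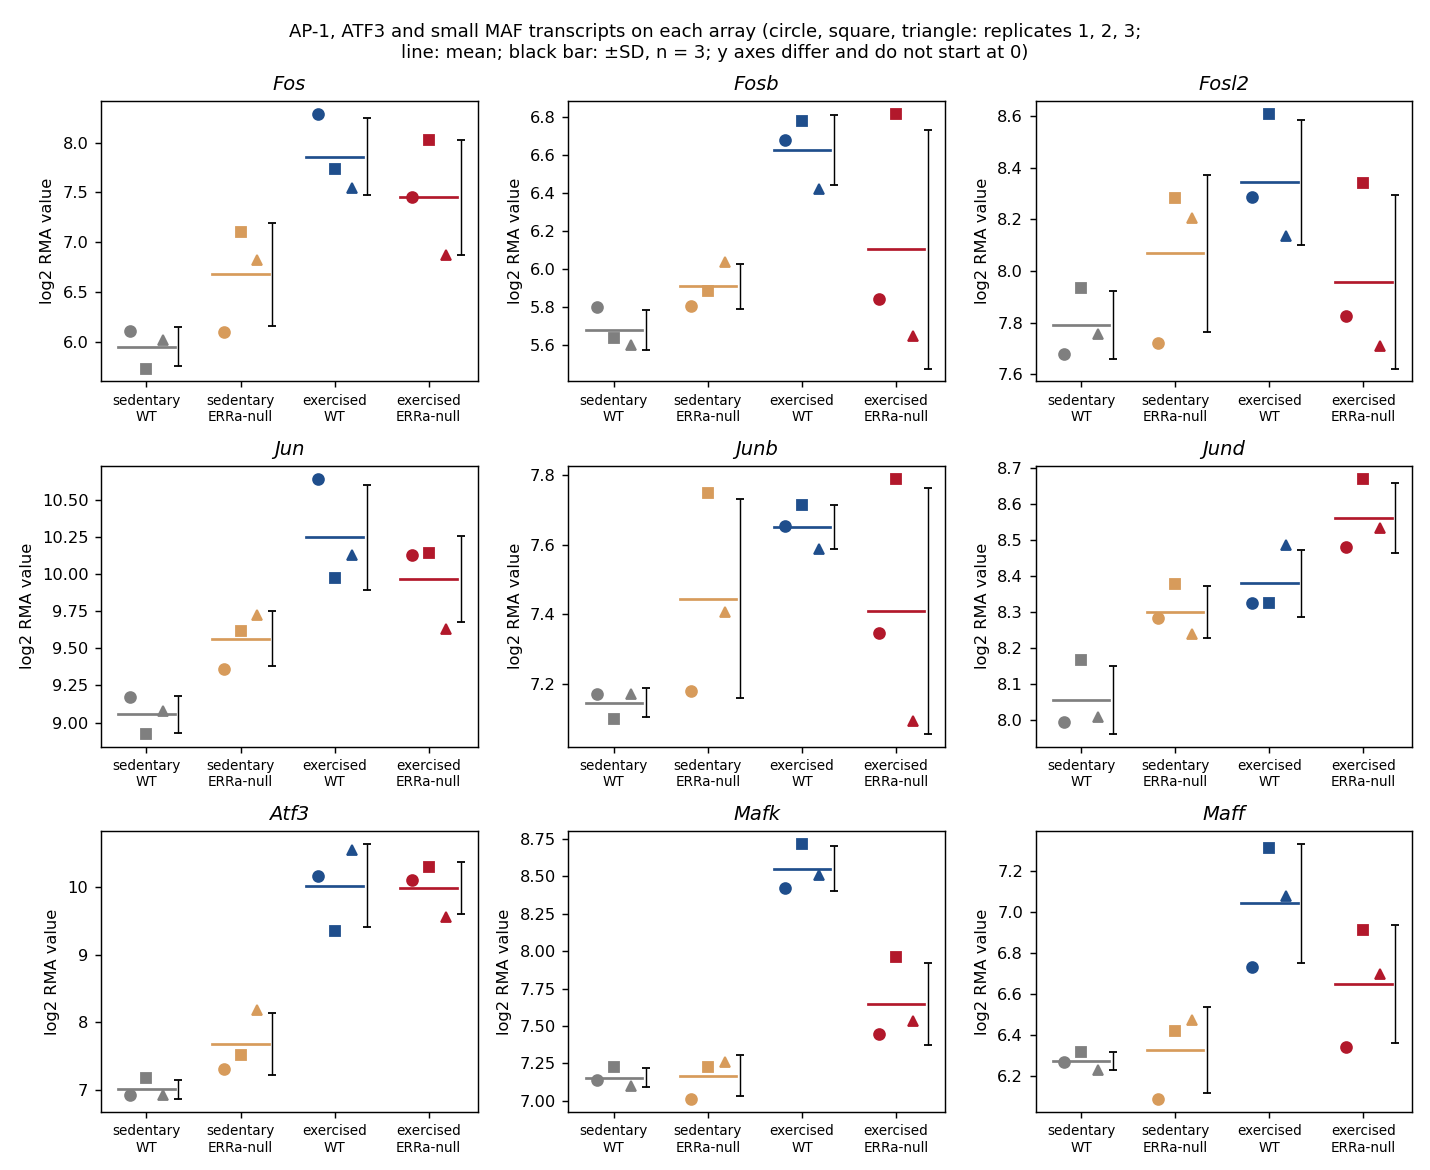
Log2 value (y axis) of each member on each of the 12 arrays, by group (x axis), with a line at the group mean and a black bar of 1 SD to each side (n = 3). Mafk sits between 8.42 and 8.72 on exercised wild-type arrays and between 7.45 and 7.96 on exercised ERRa-null arrays, while Atf3 is above 9 on every exercised array of either genotype.

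Because several members rose together in wild type, the 250 bases before the RefSeq transcript start (GRCm38.p6) were read for the 9 members with an entry, which have 11 starts since Maff has 3. Shown 5′ to 3′ are those of the 4 members called in wild type under every alternative tried (Fos, Jun, Atf3, Mafk) and the Maff start that holds a full cyclic AMP response element. Capitals mark letters that match, on either strand, the cyclic AMP response element (TGACGTCA) or its core (TGACG). They also mark the TATA box, searched for as TATAAA, and the box named for its letters, CCAAT.
Fos (chr12:85473640-85473889, + strand): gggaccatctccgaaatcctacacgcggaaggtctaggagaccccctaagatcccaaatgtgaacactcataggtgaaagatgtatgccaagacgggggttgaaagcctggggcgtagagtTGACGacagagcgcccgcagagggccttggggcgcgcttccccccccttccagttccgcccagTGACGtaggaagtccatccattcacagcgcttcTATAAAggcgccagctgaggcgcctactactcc
Jun (chr4:95052223-95052472, - strand): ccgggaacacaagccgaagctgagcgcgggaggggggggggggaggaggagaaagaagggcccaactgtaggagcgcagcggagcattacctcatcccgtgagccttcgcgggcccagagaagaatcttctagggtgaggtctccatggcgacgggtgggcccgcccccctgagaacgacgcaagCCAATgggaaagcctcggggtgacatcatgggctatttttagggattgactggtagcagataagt
Atf3 (chr1:191183334-191183583, - strand): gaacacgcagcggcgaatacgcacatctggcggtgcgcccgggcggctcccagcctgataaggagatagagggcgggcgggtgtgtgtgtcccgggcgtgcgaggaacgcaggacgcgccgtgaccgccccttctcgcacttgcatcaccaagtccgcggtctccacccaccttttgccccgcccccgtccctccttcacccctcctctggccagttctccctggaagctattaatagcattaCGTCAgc
Mafk (chr5:139791286-139791535, + strand): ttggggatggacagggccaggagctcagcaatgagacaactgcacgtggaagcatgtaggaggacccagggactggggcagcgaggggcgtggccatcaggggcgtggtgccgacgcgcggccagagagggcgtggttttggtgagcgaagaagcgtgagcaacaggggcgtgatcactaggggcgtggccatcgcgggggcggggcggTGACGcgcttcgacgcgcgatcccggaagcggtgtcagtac
Maff (chr15:79347270-79347519, + strand): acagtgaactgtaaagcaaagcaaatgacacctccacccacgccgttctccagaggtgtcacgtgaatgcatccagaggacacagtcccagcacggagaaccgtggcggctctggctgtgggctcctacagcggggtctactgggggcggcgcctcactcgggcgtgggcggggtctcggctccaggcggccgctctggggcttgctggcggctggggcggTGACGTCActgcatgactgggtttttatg

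The core TGACG occurred at 6 of the 9 members, namely Fos, Fosb, Junb, Atf3, Mafk and Maff, and in 17.8% of all 32851 promoter windows of the same length. The first count is by gene, with 3 windows read for Maff, and the share is by window. The core lies inside the full element, so each full match counts for both. Fos held it at −129 to −125 and at −66 to −62 from the transcript start and a TATA box at −33 to −28. Atf3 held the core at −7 to −3 on the opposite strand, Mafk at −41 to −37, Fosb at −60 to −56 and Junb at −106 to −102. The full element TGACGTCA was found once, at −29 to −22 of Maff, and in 1.55% of all windows. Jun and Junb each held a CCAAT box, at −65 to −61 and at −36 to −32, a motif of 33.8% of windows. No member window matched the TPA response element TGANTCA that AP-1 binds (6.75% of windows), the ERR response element TNAAGGTCA (1.14%), the heat shock element (0.466%), the Maf recognition element (0.353%) or the CArG box bound by SRF (1.47%). The core was added after the sequences were read, so its count beside that share is a description and not a test. These matches describe letters in the windows and are not measured binding sites. Sequence outside the windows of 250 bases was not searched, so a motif without a match here may lie further from the start. Only exact matches to the letters searched for were counted, and near matches were left unmarked. The Jun window, for example, holds tgacatca, which differs from TGACGTCA by a single letter.

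Among the FOS genes, Fos, the founding partner of JUN, had the largest exercise change. Its level was 6.11, 5.73 and 6.02 in sedentary wild type, 8.29, 7.74 and 7.55 in exercised wild type, 6.10, 7.11 and 6.82 in sedentary ERRa-null and 7.45, 8.03 and 6.87 in exercised ERRa-null muscle. The wild-type groups were far apart, whereas exercised ERRa-null replicate 3 lay below sedentary ERRa-null replicate 2. The rise in wild type was 3.74-fold (log2 1.90 ± 0.30 SE, adjusted p = 0.00471), and the difference in ERRa-null muscle was 0.77 ± 0.30 (adjusted p = 0.298). The wild-type value ranged from 1.69 to 2.06 over 24 alternatives and was called in each.

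Fosb, a FOS relative whose truncated form accumulates with repeated stimulation in brain, was at 5.80, 5.63 and 5.60 in sedentary and at 6.68, 6.78 and 6.42 in exercised wild type. In ERRa-null muscle it was at 5.80, 5.88 and 6.04 at rest and at 5.84, 6.82 and 5.65 after running. A single exercised ERRa-null array, replicate 2, was as high as exercised wild type, and the other two did not exceed the highest resting array. The wild-type rise was 1.93-fold (log2 0.95 ± 0.24, adjusted p = 0.0488) and was lost in 17 of 23 alternatives, with adjusted p of up to 0.292, at values between 0.87 and 1.05. Those 17 included the omission of any of the 6 wild-type arrays. Without exercised ERRa-null replicate 2 the exercise difference in ERRa-null muscle turned from 0.19 to −0.16, and the genotype difference after exercise went from −0.52 ± 0.24 (adjusted p = 0.465) to −0.88 (adjusted p = 0.0482). That omission was the 1 of 23 alternatives in which this genotype difference passed. With single arrays left out it ran from −0.88 to −0.30, with adjusted p of up to 0.829.

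Fosl2, which encodes FRA-2, moved less. Its level was 7.68, 7.94 and 7.76 in sedentary and 8.29, 8.61 and 8.14 in exercised wild type, a difference of 0.55 ± 0.19 (adjusted p = 0.154). In ERRa-null muscle it was 7.72, 8.28 and 8.20 at rest and 7.83, 8.34 and 7.71 after running, with a difference of −0.11 ± 0.19 (adjusted p = 0.846). The wild-type arrays did not overlap and the ERRa-null arrays did. The wild-type difference passed in 1 of 24 alternatives, the replicate block in the fit to all arrays (adjusted p = 0.0436), and not with that block on only the arrays compared (adjusted p = 0.0881).

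Of the JUN genes, whose proteins every AP-1 dimer needs, Jun was the 1 of 3 called in wild type. Jun was at 9.17, 8.92 and 9.07 in sedentary and at 10.64, 9.97 and 10.13 in exercised wild type, a 2.28-fold rise (log2 1.19 ± 0.18, adjusted p = 0.00282) called in all 24 alternatives. In ERRa-null muscle it was at 9.36, 9.61 and 9.72 at rest and at 10.13, 10.14 and 9.63 after running, a difference of 0.40 ± 0.18 (adjusted p = 0.354). Exercised ERRa-null replicate 3 was again the low array and fell within the resting ERRa-null range.

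Junb, a JUN protein that can restrain JUN, was at 7.17, 7.10 and 7.17 in sedentary and at 7.65, 7.71 and 7.59 in exercised wild type. The groups stood apart with narrow spread, but the difference of 0.51 ± 0.17 had an adjusted p of 0.141, and it passed with only the arrays compared (adjusted p = 0.0257). Resting ERRa-null arrays were at 7.18, 7.75 and 7.41 and exercised ones at 7.35, 7.79 and 7.09, a difference of −0.035 ± 0.17 (adjusted p = 0.951). Replicate 2 was the highest array of both ERRa-null groups for Junb, as it was for Fosl2.

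Jund, the constitutively expressed JUN, had the smallest difference of the members in wild type, and close values in both genotypes (interaction −0.062, 95% interval from −0.32 to 0.20). It was at 8.0, 8.17 and 8.01 in sedentary and at 8.33, 8.33 and 8.49 in exercised wild type (difference 0.32 ± 0.084, adjusted p = 0.0583), and at 8.28, 8.38 and 8.24 and then 8.48, 8.67 and 8.53 in ERRa-null muscle (difference 0.26 ± 0.084, adjusted p = 0.207). Neither pair of groups overlapped. Averaged over genotypes Jund rose by 0.29 ± 0.059 (adjusted p = 0.0117), and with the mean of its 2 probesets the value was 0.20 (adjusted p = 0.194). The averaged call was also lost on leaving out the Xist-high arrays (0.23, adjusted p = 0.229). Its second probeset ran from 5.82 to 6.43 over the 12 arrays.

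Atf3 had the largest exercise change of the members in both genotypes. Its level was 6.93, 7.18 and 6.93 in sedentary wild type and 10.17, 9.35 and 10.55 in exercised wild type, an 8.07-fold rise (log2 3.01 ± 0.30, adjusted p = 0.000139). In ERRa-null muscle it was 7.31, 7.52 and 8.19 at rest and 10.11, 10.31 and 9.56 after running, a 4.99-fold rise (log2 2.32 ± 0.30, adjusted p = 0.00303). No resting array reached any exercised array in either genotype. The interaction was −0.70 ± 0.42 (adjusted p = 0.997), with a 95% interval from −1.61 to 0.22. In ERRa-null muscle the call was lost on leaving out the Xist-high arrays (2.44, adjusted p = 0.0685), with 1 exercised ERRa-null array then left. It was also lost with tissue scores in the model (2.10, adjusted p = 0.117), which follow the liver, fat and lymphocyte transcripts of each array.

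**Figure D2:**
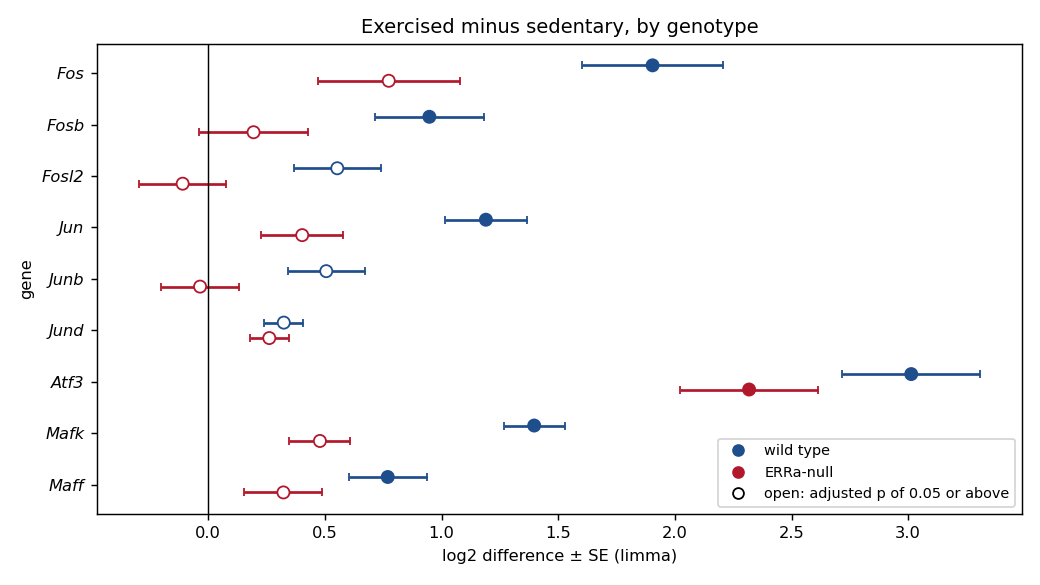
Log2 difference between exercised and sedentary muscle (x axis) for each member (y axis) in wild type and ERRa-null mice, with bars of 1 SE from limma and filled points for an adjusted p under 0.05. Filled points are 6 in wild type and 1, Atf3, in ERRa-null muscle, and the points of Jund lie closest together, at 0.32 and 0.26.

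Both small MAF members, Mafk and Maff, rose in exercised wild-type muscle, while Mafg, the third small MAF gene and no member, differed by 0.24 ± 0.086 (adjusted p = 0.191). Mafk was the member whose level after running differed between genotypes. Mafk was at 7.14, 7.22 and 7.10 in sedentary and at 8.42, 8.72 and 8.51 in exercised wild type, a 2.63-fold rise (log2 1.40 ± 0.13, adjusted p = 0.00011) called in all 24 alternatives. In ERRa-null muscle it was at 7.01, 7.23 and 7.26 at rest and at 7.45, 7.96 and 7.53 after running, a difference of 0.48 ± 0.13 (adjusted p = 0.142). The 4 groups form 3 levels without overlap, with both resting groups together, exercised ERRa-null above them and exercised wild type highest.

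After exercise Mafk was at 0.534-fold of wild type in ERRa-null muscle (log2 −0.90 ± 0.13, adjusted p = 0.0227), and 1 of 9 members was called lower where 0.286% of genes were. It was also the 1 member of 9 with every ERRa-null array lower, as for 9.31% of genes. At rest the genotypes differed by 0.014 ± 0.13 (adjusted p = 0.989). The interaction was −0.92 ± 0.19, with a 95% interval from −1.32 to −0.51, and did not pass over 13308 genes (adjusted p = 0.394). The interaction passed in 1 of 22 alternatives, the omission of exercised ERRa-null replicate 2, the highest Mafk array of its group (−1.08, adjusted p = 0.0405). With single arrays left out it ran from −1.08 to −0.82, with adjusted p of up to 0.994.

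The Mafk difference after exercise kept its call in 17 of 24 alternatives. With a replicate block its adjusted p was 0.0168 in the fit to all 12 arrays and 0.0171 in the fit to the 6 exercised ones. It was lost in a fit to the exercised arrays with no block (adjusted p = 0.0822). The call was also lost on leaving out the Xist-high arrays, which left 1 exercised ERRa-null array. The value was then −1.13, against −0.90 with all arrays. Leaving out exercised wild type replicate 1, 2 or 3 or exercised ERRa-null replicate 1 or 3 also ended the call, at values from −0.97 to −0.81 and adjusted p from 0.0550 to 0.0904. Inducible chaperones moved alongside, with a mean of 8.99 to 9.25 in exercised wild type and 8.11 to 8.71 in exercised ERRa-null muscle. Of the 6, Hsp90aa1 and Hsph1 were the 2 called lower after exercise (−0.81 and −0.72), where 0.286% of genes were. The genotype differences of the 6 chaperones ran from −1.20, which was not called, to 0.057, with 1 of 6 positive. Their part in the Mafk difference was not tested. Averaged over both states the genotype difference of Mafk was −0.45 ± 0.093 (adjusted p = 0.0367), and 133 genes, or 0.999%, were called lower there. That call was lost on leaving out any single array but sedentary wild type replicate 3 and exercised ERRa-null replicate 2 (adjusted p from 0.0532 to 0.111), or the Xist-high arrays (adjusted p = 0.102). It was also lost with no intensity trend, no filter or tissue scores (adjusted p from 0.0517 to 0.0554).

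Maff was at 6.27, 6.32 and 6.23 in sedentary and at 6.73, 7.31 and 7.08 in exercised wild type, a 1.70-fold rise (log2 0.77 ± 0.17, adjusted p = 0.0277). In ERRa-null muscle it was at 6.09, 6.42 and 6.48 at rest and at 6.34, 6.91 and 6.70 after running, a difference of 0.32 ± 0.17 (adjusted p = 0.444), and the groups overlapped. After exercise the genotype difference was −0.39 ± 0.17 (adjusted p = 0.441). The wild-type call was lost in 8 of 24 alternatives, among them the model with tissue scores (0.35, adjusted p = 0.547), the omission of the Xist-high arrays (0.75, adjusted p = 0.0885), and the omission of any sedentary wild-type array or of exercised wild type replicate 2 or 3 (0.63 to 0.79, adjusted p from 0.0624 to 0.0969).

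At rest, all 9 members lay above wild type in ERRa-null muscle, and none passed the test. The median difference was 0.28 log2 beside −0.0012 over all genes, and 0 of 9 members were called in limma where 0.0526% of genes were called higher. At an unadjusted p under 0.05 there were 4 members (Fos, Jun, Jund and Atf3), beside 8.22% of genes. Jun (0.51 ± 0.18, adjusted p = 0.439), Atf3 (0.66 ± 0.30, adjusted p = 0.591), Jund (0.24 ± 0.084, adjusted p = 0.422), Junb (0.30 ± 0.17) and Fosb (0.23 ± 0.24) had no overlap between genotypes at rest, which makes 5 of 9 where 6.91% of genes had all ERRa-null arrays higher. Fos lay 0.72 ± 0.30 above wild type (adjusted p = 0.557) through replicates 2 and 3, since ERRa-null replicate 1, at 6.10, fell among the wild-type arrays. This direction was not particular to the members. Of 8 tested ATF4 and ATF3 stress genes, a list read below, 8 lay above wild type at rest (median 0.26). Of 10 tested textbook AP-1 targets 5 did (median −0.0022).

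After exercise the order of the genotypes was the other way for 8 of the 9 members, with Jund the exception at 0.18 ± 0.084 (adjusted p = 0.482). The median difference was −0.38 log2, beside 0.0013 over all genes. Apart from Mafk no member passed, and Fos (−0.41 ± 0.30), Jun (−0.28 ± 0.18), Junb (−0.24 ± 0.17), Fosl2 (−0.38 ± 0.19) and Atf3 (−0.030 ± 0.30) overlapped between genotypes. With single arrays left out the Atf3 value ran from −0.37 to 0.24.

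**Figure D3:**
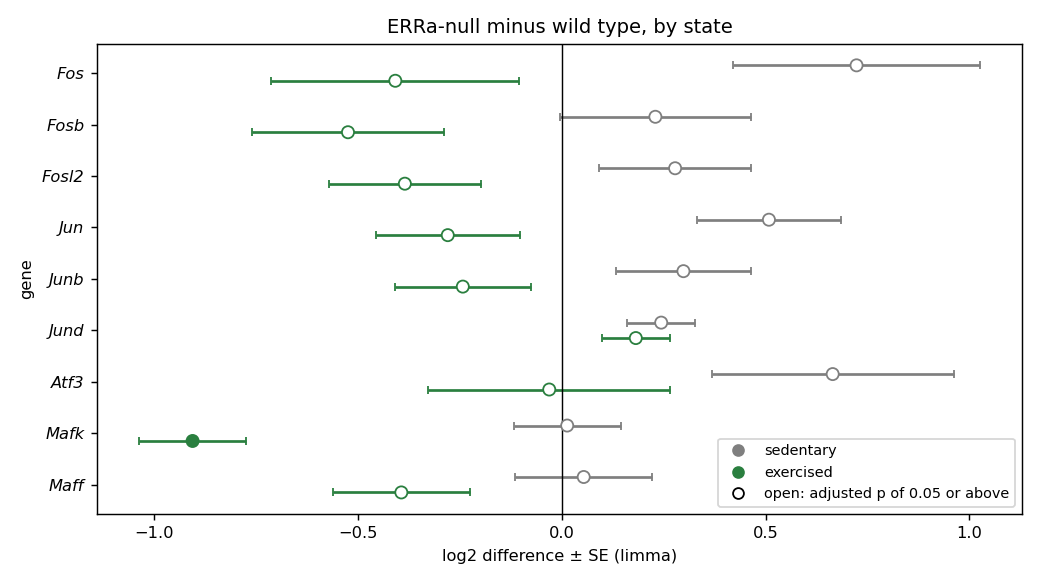
Log2 difference between ERRa-null and wild-type muscle (x axis) for each member (y axis) in sedentary and exercised mice, with bars of 1 SE from limma and filled points for an adjusted p under 0.05. The single filled point is Mafk after exercise at −0.90, and resting values run from 0.014 (Mafk) to 0.72 (Fos).

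Markers of other cells were read beside these values, and their part in the results was not tested. Neutrophil markers (8 of 8 measured, mean log2 level) lay between 4.33 and 4.52 in both sedentary groups and in exercised ERRa-null between 4.31 and 4.52, and reached 5.67 in exercised wild type replicate 2, where Retnlg was at 6.68. That array was also the highest of its group for Fosb, Fosl2, Junb, Mafk and Maff, and the lowest for Atf3 and Jun. Its mean over 8 endothelial markers was 7.30, against 7.62 to 8.06 on the other arrays, with Kdr at 7.40 and Emcn at 6.93. Without it the wild-type exercise difference was 1.31 for Mafk and 0.63 for Maff. Of 5 tested satellite cell markers 1, Sdc4, was called higher with exercise in wild type (1.26), where 2.22% of all genes were. The median of the 5 was 0.13 and the lowest value −0.16. The mean of the 6 measured markers, Sdc4 included, ran from 6.39 to 6.55 on sedentary and from 6.55 to 6.78 on exercised arrays. Of the markers tested, 0 of 8 macrophage, 0 of 8 endothelial and 0 of 7 fibroblast genes were called in limma for exercise in wild type. The same genes were below wild type at rest in ERRa-null muscle for 8 of 8 endothelial (median −0.20) and 7 of 7 fibroblast markers (median −0.21). Of the 8 macrophage markers 1 was above wild type at rest (median −0.16). The interaction was positive for 7 of 8 endothelial (median 0.26), 7 of 7 fibroblast (median 0.41) and 5 of 8 macrophage markers (median 0.047). Of these markers 0 were called in limma in either comparison. In whole muscle, fewer cells of a type and less RNA per cell cannot be told apart.

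The genes that pair with AP-1, feed into it or are known to carry its sites were taken from 7 lists of textbook members. Among 11 tested ATF, CREB, BATF and JDP partners 2 rose in exercised wild type, where 2.22% of all genes were called higher. They were Atf4, the effector of the integrated stress response (0.65 ± 0.072, adjusted p = 0.000311), and Crem, whose inducible form represses cyclic AMP targets (0.64 ± 0.12, adjusted p = 0.0119). The median of that list was −0.095. Of 10 MAF relatives and CNC partners 3 rose, Bach1, a heme-sensing repressor that dimerises with small MAFs (0.94 ± 0.16, adjusted p = 0.00804), Nfe2l2, which encodes NRF2 (0.71 ± 0.14, adjusted p = 0.0190), and the large MAF gene Maf (0.42 ± 0.10, adjusted p = 0.0491), with a list median of 0.12. In ERRa-null muscle 0 of the 11 and 0 of the 10 were called, where 0.383% of all genes were called higher.

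Of 15 tested MAP kinase and SRF-side genes 1 was called in wild type, the p38 activator Map2k6, which fell by 0.39 (± 0.086, adjusted p = 0.0311), and averaged over genotypes Map2k3, which also activates p38, rose by 0.35 (± 0.072, adjusted p = 0.0122). Of 14 MAP kinase feedback inhibitors Dusp5, a phosphatase of ERK, rose in wild type (0.75 ± 0.13, adjusted p = 0.00729), and Dusp8, a phosphatase of JNK and p38, rose averaged over genotypes (0.50 ± 0.096, adjusted p = 0.00881). The medians of these 2 lists in wild type were −0.0090 and 0.12, beside −0.0089 over all genes. Of all 13308 genes, 296 (2.22%) were called higher and 161 lower in wild type. Averaged over genotypes 418 (3.14%) were called higher.

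Among 10 tested textbook AP-1 targets, 3 rose with exercise in wild type and 1 in ERRa-null muscle, where 2.22% and 0.383% of all genes did. Hbegf, an EGF-family growth factor, rose 3.53-fold in wild type (log2 1.82 ± 0.25, adjusted p = 0.00163) and 2.72-fold in ERRa-null muscle (1.44 ± 0.25, adjusted p = 0.0255). Thbs1, the matrix protein thrombospondin 1, rose 3.68-fold (log2 1.88 ± 0.30, adjusted p = 0.00414) and Tnc, the matrix protein tenascin C, 1.48-fold in wild type. Averaged over genotypes 6 of the 10 rose, where 3.14% of all genes did, among them Ccl2, a monocyte chemokine (0.96 ± 0.19, adjusted p = 0.00903). Of 18 listed genes 15 were measured, and 5 of these did not pass the filter on low values.

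Antioxidant genes that carry sites for CNC and small MAF dimers had 4 of 10 tested members called higher in wild type. Of all genes 2.22% were called higher there, and 0.383% in ERRa-null muscle. Srxn1, sulfiredoxin, rose 4.11-fold (log2 2.04 ± 0.12, adjusted p = 4.73e-06), Hmox1, heme oxygenase, 3.31-fold (1.73 ± 0.19), Txnrd1, thioredoxin reductase, 1.77-fold and Osgin1 1.58-fold. In ERRa-null muscle Srxn1 was the 1 called, at 2.51-fold (log2 1.33 ± 0.12, adjusted p = 0.00047). After exercise 9 of the 10 lay below wild type in ERRa-null muscle, at a median of −0.29 beside 0.0013 over all genes, and 0 were called in limma. Of 8 tested ATF4 and ATF3 stress genes Ppp1r15a, which encodes the phosphatase subunit GADD34, rose in wild type (0.85 ± 0.10, adjusted p = 0.000629) and none was called in ERRa-null muscle. As for the members, the interaction was negative for all 8 (median −0.29), and 0 were called in limma.

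**Figure D4:**
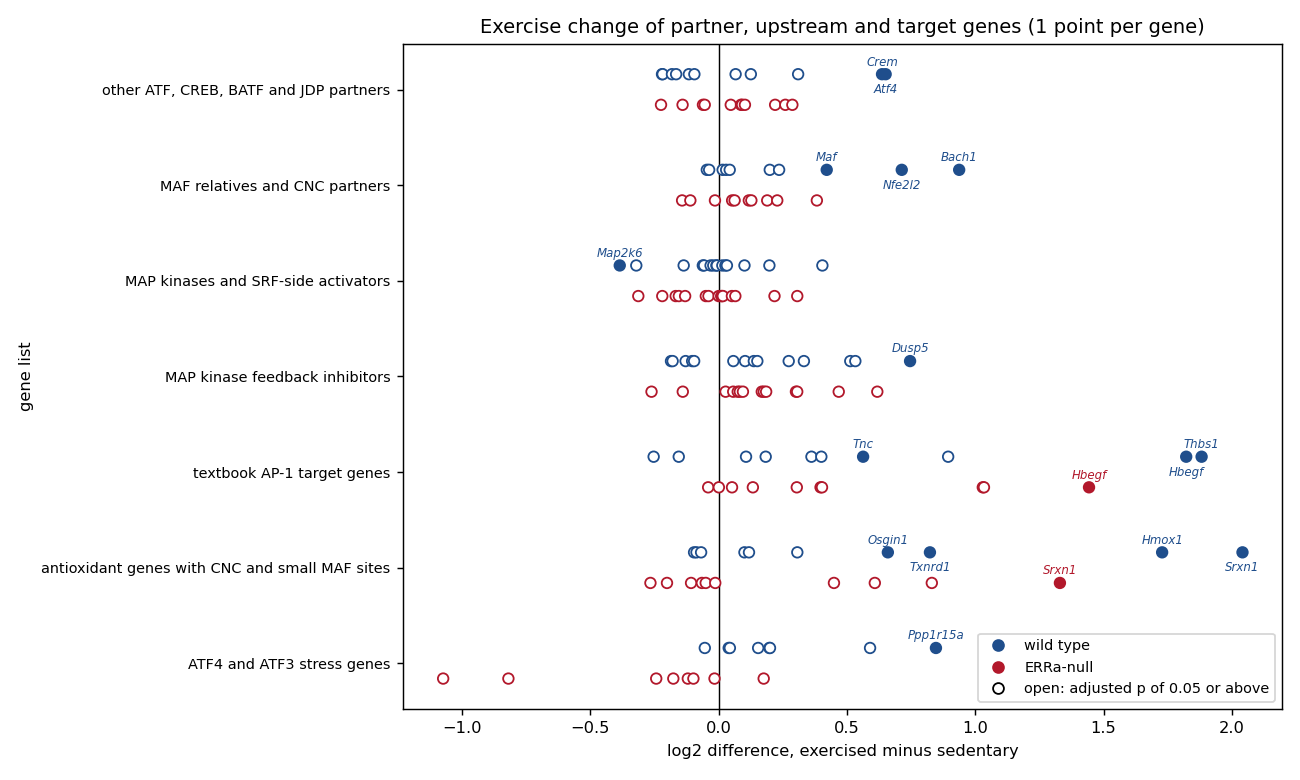
Log2 difference between exercised and sedentary muscle (x axis) for each tested gene of 7 lists (y axis), in wild type and ERRa-null mice, with filled and named points for an adjusted p under 0.05. In wild type the named points run from Map2k6 at −0.39 to Srxn1 at 2.04, and in ERRa-null muscle they are Hbegf at 1.44 and Srxn1 at 1.33.

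Likeness to single members was measured as the root mean square difference of log2 values over 12 arrays after centring each gene, which favours genes of similar amplitude. The other members were ranked apart from the rest of the genes. Outside the members, nearest to Mafk were the chaperone gene Hsph1 (0.146), the folliculin gene Flcn (0.153) and the receptor gene Gpr157 (0.153), with genotype differences after exercise of −0.72, −0.54 and −0.70. For Atf3 the nearest non-members were Tnfrsf12a, the receptor of TWEAK (0.383), and the stretch-responsive muscle genes Xirp1 (0.453) and Ankrd1 (0.492), whose exercise differences in ERRa-null muscle were 1.96, 1.65 and 3.35. For Fos they were the immediate early antiproliferative gene Btg2 (0.310), Thbs1 (0.357) and the myogenic factor gene Myog (0.364), while the member Jun (0.363) was nearer than Myog. For Junb they were the predicted gene Gm5476 (0.124), Scube1 (0.136) and Map2k3os (0.144), and the member Fosl2 (0.132) was nearer than Scube1 and Map2k3os. Of the other members, Maff was nearest to Mafk (0.283) and Fos to Atf3 (0.788).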

How the data were processed

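Gastrocnemius RNA of 12 mice was measured on Affymetrix Mouse Gene 2.0 ST arrays. The deposited values are log2 expression values, made with RMA per the submitters' processing notes, which also list Transcriptome Analysis Console and Affymetrix Expression Console, with versions and build not given in the sources used here. RMA brings arrays to 1 distribution, so differences are relative to the bulk of transcripts. Probesets naming 1 symbol were kept (23521 of 41345, of which 23328 matched RefSeq GRCm38.p6), with the brightest standing for a gene. Genes below a mean log2 of 5.32 were left out.

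Groups follow the titles. A model of 4 group means was fitted to 13308 genes with limma 3.58.1 in R 4.3.3 (8 residual degrees of freedom, eBayes with an intensity trend), and two-sided p-values were adjusted over all genes by Benjamini-Hochberg, with calls at an adjusted p under 0.05. All 7 comparisons (exercise and genotype within and averaged over the other factor, and their interaction) share arrays. Values after ± are standard errors. The model was also run on simulated data with independent noise on each array. These data held no transcripts of other tissues and no Xist-high arrays, so the run does not cover those features. Arrays have no read depth, and 3 arrays per group limit precision. The labels call the arrays of a group replicates.

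The members and lists were chosen with earlier results of these data known. Named are all members, up to 4 called genes per list and comparison by smallest p, the 3 genes nearest to Fos, Junb, Atf3 and Mafk, and check genes. Correlations of the deviations of same-numbered arrays ran from 0.174 to 0.312 between the exercised groups and from 0.0628 to 0.269 between the wild-type groups. The highest correlation between groups, 0.63, joined unlike numbers (sedentary wild type replicate 1 and sedentary ERRa-null replicate 2). The labels state no shared litter or day, and these correlations do not settle whether the number pairs the samples. Xist was 7.82 to 7.90 on the 3 Xist-high arrays and 3.66 to 4.30 on all others, every sedentary array included. For those 3, the sedentary array of the same genotype and number thus does not have the profile of the same animal. Alternatives changed the filter, trend, centring, probeset rule, block, weights, arrays and tissue covariates.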

Additional observations from a re-analysis of the deposited data

How the results depend on the processing

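Fos, Jun, Atf3 and Mafk were called for exercise in wild type under all 24 alternatives, where the number of called members ran from 4 to 7. The number called for exercise in ERRa-null muscle went from 1 to 0 with the replicate block on only the arrays compared, with tissue scores and without the Xist-high arrays. For genotype after exercise it went from 1 to 0 with only the arrays compared and without the Xist-high arrays, and ran from 0 to 2 with single arrays left out. For the genotype average it went from 1 to 0 with no trend, no filter, tissue scores or without the Xist-high arrays, and ran from 0 to 1 with single arrays left out, as it did for the interaction. The exercise average went from 6 to 2 (Jun and Atf3) with tissue scores, and to 5 without the Xist-high arrays, with Jund and Maff out and Fosb in. At rest 0 members were called for genotype in limma under every alternative. The causes were not tested.

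With a replicate block in the fit to all arrays, the number called in wild type was 6, with Fosl2 in (adjusted p = 0.0436) and Fosb out (0.0503), and no other call of a member changed. On only the arrays compared, the block ended the calls of Maff in wild type (0.0765) and of Atf3 in ERRa-null muscle (0.0931). In that setting 0 of 13308 genes were called for exercise in ERRa-null muscle. In wild type 120 were called higher, against 296 in the main fit. Same-numbered correlations ran from 0.174 to 0.312 between the exercised groups and from −0.278 to 0.347 in the other pairs of groups.

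Of 1451 single values recomputed, 23 changed sign, none of them called. Without the Xist-high arrays Fosb for exercise in ERRa-null was −0.068, Atf3 for genotype after exercise 0.35 and Junb for the genotype average −0.019. With tissue scores Maff for exercise in ERRa-null was −0.072, and Mafk and Maff for genotype at rest were −0.033 and −0.054. With the mean of probesets the Jund interaction was 0.024. With single arrays left out, exercise in ERRa-null ran from −0.16 to 0.42 for Fosb, −0.30 to 0.015 for Fosl2 and −0.23 to 0.12 for Junb. Genotype at rest ran from −0.033 to 0.092 for Mafk and −0.020 to 0.17 for Maff, genotype after exercise from −0.37 to 0.24 for Atf3, and the genotype average from −0.15 to 0.034 for Fosl2 and −0.067 to 0.11 for Junb.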
